A study of Homo sapiens with 6 samples.

Results

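The pre-B-cell receptor is the antigen-receptor precursor of B-cell progenitors, and its signalling genes were read here in REH cells with and without a hairpin against STAT3. The 9 genes are CD79A and CD79B (the signalling chains), VPREB1, VPREB3 and IGLL1 (the surrogate light chain and a related protein), and SYK, BTK, BLNK and PLCG2 (the proximal kinases, adaptor and phospholipase). They were picked out by gene symbol, and all 9 stand among the 26364 genes of the authors' deposited table. REH is an established human leukaemia line (acute lymphoblastic, of B-cell precursor origin). In 3 libraries, called shSTAT3, the cells had been transduced by lentivirus with a short hairpin RNA against the transcription factor STAT3, and in another 3, called scramble, with a scramble control hairpin. Cells of both groups went through puromycin selection for 3 days and removal of dead cells before total RNA was taken, in 3 independent experiments. The number and sequence of the hairpins, not given in the sources used here, limit what a single knockdown can show.

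In a normal large pre-B cell, an immunoglobulin heavy chain pairs with a surrogate light chain made of VPREB1 and IGLL1, also called lambda5, and the pair reaches the surface with a CD79A and CD79B dimer. SRC-family kinases phosphorylate the tails of CD79A and CD79B, SYK docks there and phosphorylates the adaptor BLNK, and BLNK brings BTK and PLCG2 together, so that PLCG2 can cleave membrane phosphoinositides into second messengers. This receptor tests whether a heavy chain is functional, drives a burst of division and then helps to end it, and it is a survival signal in some acute lymphoblastic leukaemias.

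For each gene the authors' deposited table holds a mean normalized count (read counts scaled for depth, averaged over both groups), the log2 ratio of the groups with its raw and adjusted p, and nothing per library. The mean normalized counts of the authors' deposited table sum to 11485068 per library, and 12061 genes have an adjusted p and are called tested here. A gene was called when its adjusted p from the authors' DESeq2 test was under 0.05. The 95% intervals follow from the fold change and its p-value. The table shows no spread between libraries, so intervals and adjusted p are the only measures of error, and both reflect the spread over the 3 experiments. STAT3 in the shSTAT3 cells was down to 29.8% of scramble per the authors' deposited table (95% interval 26.2% to 33.8%, DESeq2 adjusted p = 7.78e-74). The table does not say which group is on top of its fold changes, and a negative value was read as lower in shSTAT3 because STAT3 is the target, so every direction below rests on that reading.

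Sequences just upstream of 5 genes are shown first, because they carry the contrasts among the members: CD79A rose most and PLCG2 fell most. The surrogate light chain genes VPREB1 and IGLL1 and the related gene VPREB3 ranged between a listed value of 0 and a very high level. Each sequence is a RefSeq window of GRCh38.p14 with 250 bases before and 50 after the annotated start, written 5′ to 3′ on the gene's own strand. Capitals mark matches to 6 short motifs searched on both strands: TTCNNNGAA for STAT proteins, CCCNNGGG for EBF1, CAGGTG for E2A, ATGCAAAT for octamer factors, AGGAAGT for ETS factors and TGGGAA for Ikaros.

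CD79A, chr19:41877029-41877328, plus strand: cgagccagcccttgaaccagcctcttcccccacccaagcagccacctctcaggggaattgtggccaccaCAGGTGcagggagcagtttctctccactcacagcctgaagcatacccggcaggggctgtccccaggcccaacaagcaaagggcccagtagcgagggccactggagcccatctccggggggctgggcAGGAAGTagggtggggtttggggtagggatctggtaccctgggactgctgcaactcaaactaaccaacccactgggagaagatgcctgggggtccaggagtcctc

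PLCG2, chr16:81738791-81739090, plus strand: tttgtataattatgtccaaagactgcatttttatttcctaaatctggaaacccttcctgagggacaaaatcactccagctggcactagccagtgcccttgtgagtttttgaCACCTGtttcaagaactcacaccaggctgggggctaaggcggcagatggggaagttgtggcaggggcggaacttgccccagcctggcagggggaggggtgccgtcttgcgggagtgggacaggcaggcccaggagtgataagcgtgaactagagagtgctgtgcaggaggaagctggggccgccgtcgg

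VPREB1, chr22:22244536-22244835, plus strand: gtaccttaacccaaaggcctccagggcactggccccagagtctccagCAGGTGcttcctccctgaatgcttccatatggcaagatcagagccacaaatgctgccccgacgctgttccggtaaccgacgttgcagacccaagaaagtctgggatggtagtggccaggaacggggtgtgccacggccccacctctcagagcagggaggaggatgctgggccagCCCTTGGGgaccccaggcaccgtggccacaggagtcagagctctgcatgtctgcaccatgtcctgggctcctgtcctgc

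VPREB3, chr22:23754376-23754675, minus strand: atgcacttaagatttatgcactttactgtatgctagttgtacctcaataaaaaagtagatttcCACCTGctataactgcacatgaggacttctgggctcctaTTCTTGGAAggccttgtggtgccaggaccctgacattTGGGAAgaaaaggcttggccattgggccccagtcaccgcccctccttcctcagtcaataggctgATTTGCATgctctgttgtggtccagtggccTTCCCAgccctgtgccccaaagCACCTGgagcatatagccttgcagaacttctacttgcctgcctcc

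IGLL1, chr22:23580241-23580540, minus strand: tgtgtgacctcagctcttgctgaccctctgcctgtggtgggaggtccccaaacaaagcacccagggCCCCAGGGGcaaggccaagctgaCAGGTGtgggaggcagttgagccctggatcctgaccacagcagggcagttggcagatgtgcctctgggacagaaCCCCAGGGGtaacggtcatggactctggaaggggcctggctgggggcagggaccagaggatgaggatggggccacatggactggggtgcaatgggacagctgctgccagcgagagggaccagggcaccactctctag

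RefSeq windows were found for 8 of the 9 genes, all but CD79B, and gave 11 windows because SYK and BTK have several starts. The E2A letters CAGGTG stood in 8 of these 11 windows, against 20.6% of all 35116 RefSeq windows. Overlapping windows of SYK hold the same E2A site, so that site was counted more than once among the 8. The E2A letters were found at 7 genes: CD79A, VPREB1, VPREB3, IGLL1, BLNK, SYK and PLCG2. Members that rose, that fell and that were listed at 0 all had this match. The STAT letters TTCNNNGAA stood in 1 window, that of VPREB3, as TTCTTGGAA, against 7.66% of all windows. The VPREB3 window was also the only one of the 11 with the octamer, which 1.77% of all windows hold. The EBF1 letters were found at VPREB1, IGLL1 and BTK (19.1% of all windows). In IGLL1 the EBF1 matches overlapped each other, and matches of different motifs did not overlap in any of the 11 windows. The ETS letters were found at CD79A, BLNK, SYK and BTK (8.24% of all windows) and the Ikaros letters at VPREB3 and SYK (24% of all windows). A match describes letters in a window, and binding was not measured.

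Of the 9 genes, 8 were tested and VPREB1, listed at 0, was not. In the authors' deposited table, 4 of the 8 tested genes were called, 2 higher and 2 lower in shSTAT3. Among all tested genes 44.5% were called, 21.3% higher and 23.2% lower. All 8 have a mean of at least 1000, and among the 2950 such tested genes 58.8% were called, 30.4% higher and 28.4% lower. The share of called members, 50%, lies near these backgrounds and is not read as a result about the members. The median log2 fold change of the 8 genes was 0.08, against 0.0027 for all tested genes. CD79A had the lowest adjusted p and the highest fold change of the 8, while its partner CD79B did not pass. With a minimum change added (at least 125% or at most 80% of scramble), 1 member, CD79A, was called, against 35.8% of all tested genes.

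**Figure D1:**
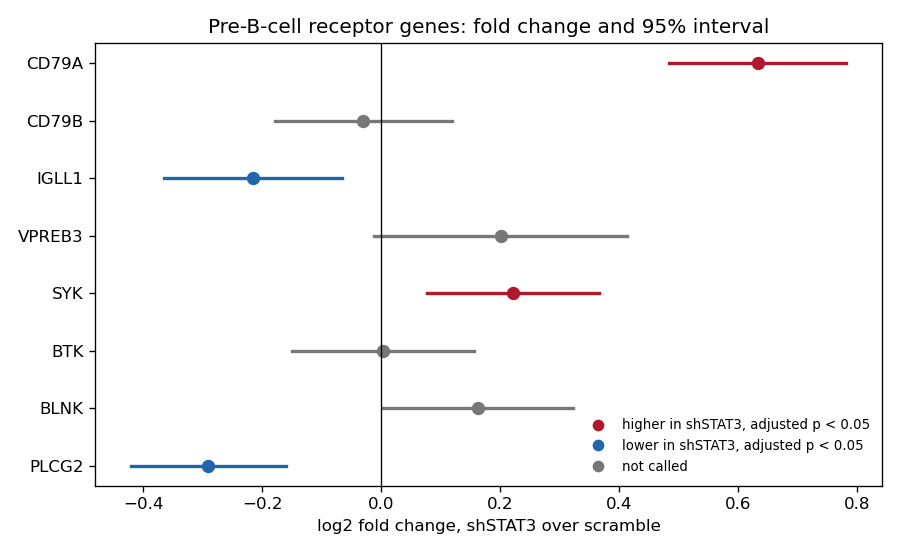
Values of the authors' deposited table: log2 fold change of shSTAT3 over scramble (horizontal axis) for the 8 tested genes, with bars for the 95% interval implied by the authors' p-value. CD79A stands at 0.63, SYK at 0.22, IGLL1 at −0.22 and PLCG2 at −0.29, and the 4 grey genes were not called.

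The levels of the genes differed widely. Divided by the length of merged exons in GENCODE 29, the mean count over all libraries by the authors' deposited table was 5014 per kilobase for CD79A, higher than that of 99.6% of tested genes, and 4891 per kilobase for IGLL1. VPREB3 followed with 2904 and CD79B with 2488 mean counts per kilobase per the authors' deposited table. The signalling genes were lower, at 1182 per kilobase for BLNK, 823 for SYK, 385 for BTK and 269 for PLCG2 by the authors' deposited table. PLCG2, the lowest of the 8, still lay above 82.8% of tested genes by level per kilobase. With the longest transcript in place of merged exons the order changed in 1 place, with CD79B at 4077 above VPREB3 at 2904 mean counts per kilobase per the authors' deposited table. How far the signalling genes stood below CD79A, IGLL1, VPREB3 and CD79B depends on the length used. With the longest transcript BLNK stood at 2422 mean counts per kilobase from the same table, close to VPREB3. SYK then stood at 857, BTK at 637 and PLCG2 at 414 mean counts per kilobase from the same table. No spread over libraries is given, so it is not known whether neighbours in this order, such as CD79A and IGLL1, differ beyond it.

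**Figure D2:**
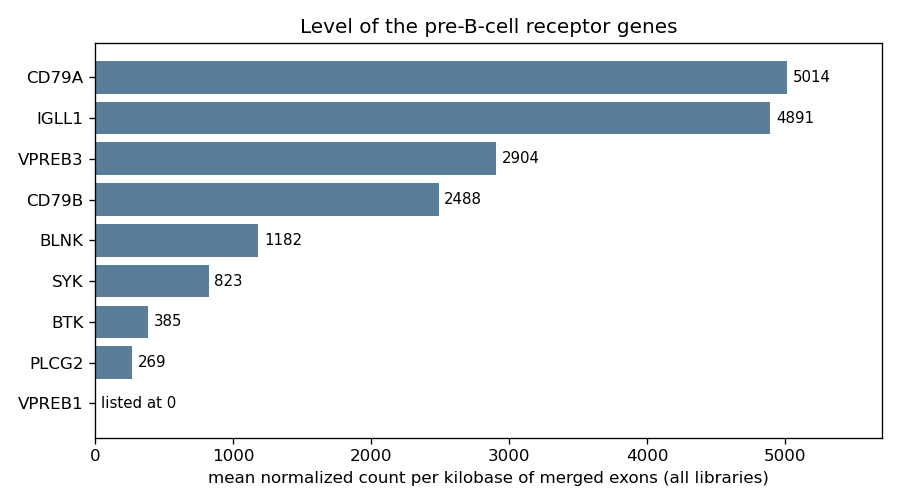
Values of the authors' deposited table: mean normalized count over all 6 libraries per kilobase of merged exons (horizontal axis, linear) for the 9 genes. CD79A, IGLL1, VPREB3 and CD79B lie at 2488 or more, the signalling genes at 1182 or less, and VPREB1 is listed at 0. With the longest transcript as the length BLNK would stand at 2422.

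CD79A, on chromosome 19 from 41877120 to 41881372 (plus strand, GENCODE 29 on GRCh38), encodes the Ig-alpha chain, whose tail carries a tyrosine motif for SYK. Its level in shSTAT3 cells was 155% of that in scramble cells by the authors' deposited table (log2 change 0.63, 95% interval 0.48 to 0.78, DESeq2 adjusted p = 1.91e-15). By p-value CD79A ranked 431 among the 12061 tested genes. Of the tested genes with a mean of at least 1000, 98 (3.32%) rose as far as CD79A or further. Before division by length, its mean of 7536 normalized counts per the authors' deposited table ranked 165 in the whole table.

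CD79B encodes Ig-beta, with which CD79A forms an obligate dimer, and spans positions 63928740 to 63932354 of chromosome 17, minus strand. It stood at 98% of scramble in the shSTAT3 cells by the authors' deposited table (log2 change −0.03, 95% interval −0.18 to 0.12, DESeq2 adjusted p = 0.778). The intervals of CD79A and CD79B do not overlap, although the difference between the genes was not tested, since both values come from the same libraries. The annotated gene AC127029.3 on the same strand covers 13.8% of the exon bases of CD79B, and the handling of shared reads was not stated. For CD79A no gene of GENCODE 29 overlaps, and 0% of its 50-base stretches recur in transcripts of another gene.

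IGLL1, the lambda5 protein of the surrogate light chain, lies on the minus strand of chromosome 22 (23573125 to 23580308). It fell to 86.2% of scramble per the authors' deposited table (log2 change −0.22, 95% interval −0.36 to −0.07, DESeq2 adjusted p = 0.0136). This was a small change: among tested genes with a mean of at least 1000, 26.6% fell as far or further. Relatives of IGLL1 in the immunoglobulin lambda locus share sequence with it, and 8.24% of its 50-base stretches recur in transcripts of other genes, IGLL3P and IGLC1 among them. IGLL5 and IGLL3P had means of only 0.307 and 0.16 normalized counts by the authors' deposited table.

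VPREB3, on the minus strand of chromosome 22 (23752743 to 23754468), encodes an immunoglobulin-like protein that in mouse binds heavy chains inside B-lineage cells. It stood at 115% of scramble per the authors' deposited table and did not pass (log2 change 0.20, 95% interval −0.01 to 0.41, DESeq2 adjusted p = 0.123). Its implied standard error of 0.11 on the log2 scale was the largest of the 8 genes.

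VPREB1, the partner of IGLL1 in the surrogate light chain, is listed at 0 by the authors' deposited table, with no fold change and no p-value. The pair that makes up the surrogate light chain was thus unequal in the table, with IGLL1 at 4421 and VPREB1 at 0 mean normalized counts per the authors' deposited table. VPREB1 is among 8589 genes of the table listed at 0 (32.6%). A value of 0 does not by itself show that a transcript is missing, because EIF4A1 and EIF3C, translation factor genes that every cell uses, are also listed at 0 by the authors' deposited table. Those genes share sequence with others: 41% of the 50-base stretches of EIF4A1 and 45.5% of those of EIF3C recur in transcripts of another gene. For VPREB1 that share was 0%, and no other gene of GENCODE 29 overlaps it. RNA from VPREB1 was not measured in another way, and the source of the 0 was not tested.

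VPREB1 lies on the plus strand of chromosome 22 (22244675 to 22245515), amid the variable segments of the immunoglobulin lambda locus. Of the 22 other protein-coding genes of the table within 1000 kb on either side, 4 are also listed at 0 and 13 were tested. Distances here run between the lower coordinates of the genes, whatever their strand. The nearest neighbours in the table were TOP3B, a topoisomerase gene 288 kb before VPREB1, and ZNF280B, a zinc finger gene 240 kb after it. TOP3B had a mean of 528 and ZNF280B of 54.1 normalized counts per the authors' deposited table. Reads were thus counted on both sides of VPREB1. IGLL1 and VPREB3, the other members on this chromosome, lie 1328 kb and 1508 kb after VPREB1 by the same measure. Both are on the minus strand, so their lower coordinate is their 3′ end.

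**Figure D3:**
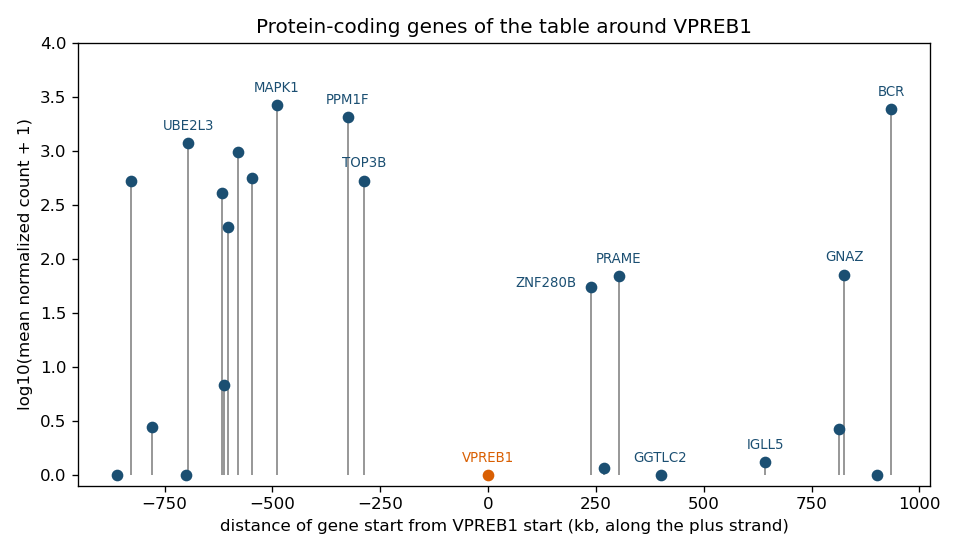
Values of the authors' deposited table: log10 of the mean normalized count plus 1 over all libraries (vertical axis) for protein-coding genes of the table, by the distance of their start from that of VPREB1 in kilobases (horizontal axis). Start means the lower coordinate of a gene, whatever its strand. VPREB1 (orange) is listed at 0, TOP3B before it has a mean of 528, and ZNF280B and PRAME after it have means of 54.1 and 68.7.

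SYK, on the plus strand of chromosome 9 (90801787 to 90898549), encodes the tyrosine kinase that binds the phosphorylated tails of CD79A and CD79B. It rose to 117% of scramble by the authors' deposited table (log2 change 0.22, 95% interval 0.08 to 0.37, DESeq2 adjusted p = 0.00766). Among tested genes with a mean of at least 1000, 26.9% rose as far or further. Its interval lies below that of CD79A, a difference that was not tested.

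BTK, the TEC-family kinase that is lost in X-linked agammaglobulinaemia and is the target of ibrutinib, lies on the minus strand of chromosome X (101349447 to 101390796). It stood at 100.2% of scramble per the authors' deposited table (log2 change 0.0023, 95% interval −0.15 to 0.16, DESeq2 adjusted p = 0.985). The interval covers levels between 90.1% and 111% of scramble, so changes within that range could not be told from none at this precision.

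BLNK, the adaptor also known as SLP-65, lies on the minus strand of chromosome 10 (96191702 to 96271587). It stood at 112% of scramble by the authors' deposited table (log2 change 0.16, unadjusted p = 0.0459, DESeq2 adjusted p = 0.0923) and did not pass. Its 95% interval, 0.003 to 0.32 on the log2 scale, only just leaves out 0. ZNF518A on the opposite strand covers 9.71% of the exon bases of BLNK, had a mean of 1012 normalized counts and was not called per the authors' deposited table, and strand use in counting was not stated.

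PLCG2, on the plus strand of chromosome 16 (81739097 to 81962693), encodes the phospholipase that BTK activates. It fell to 81.8% of scramble by the authors' deposited table (log2 change −0.29, 95% interval −0.42 to −0.16, DESeq2 adjusted p = 6.43e-05). Of the tested genes with a mean of at least 1000, 21.1% fell as far or further. PLCG1, its close relative better known from T cells and here one of the listed effectors, was higher per the authors' deposited table (log2 change 0.17, DESeq2 adjusted p = 0.0345).

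**Figure D4:**
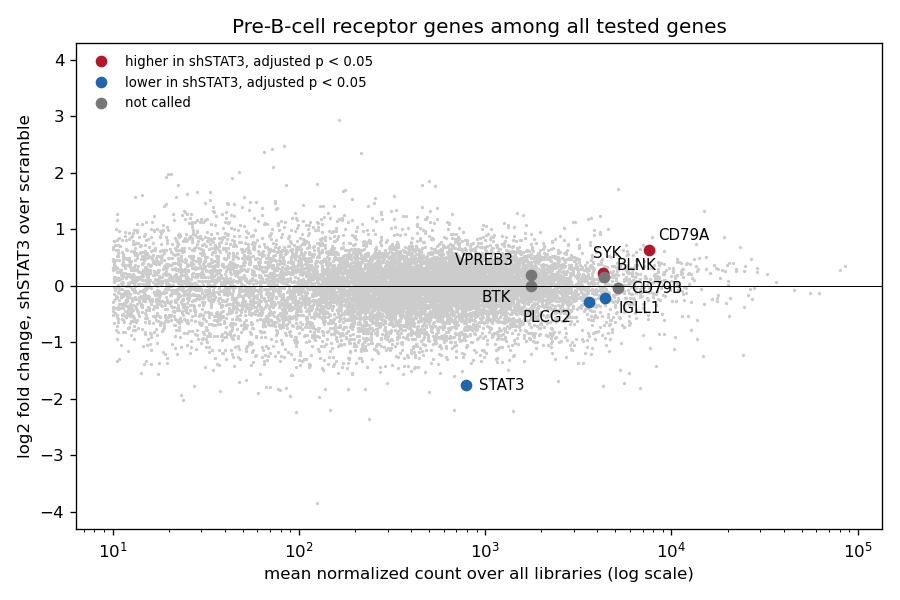
Values of the authors' deposited table: log2 fold change of shSTAT3 over scramble (vertical axis) against the mean normalized count over all libraries (horizontal axis, log scale) for all 12061 tested genes in light grey, with the 8 tested members and STAT3 on top. The members have means between 1763 and 7536 and lie within 0.63 of 0, while STAT3 lies at −1.75.

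Several genes that work beside the receptor had fold changes beyond those of any member, a difference that was not tested. Of 20 tested coreceptor and adaptor genes 6 rose and 7 fell by the authors' deposited table, with a median log2 fold change of −0.05. The called share, 65%, stands beside 44.5% of all tested genes and 58.8% of those with a mean of at least 1000, and no test set the list against them. PIK3AP1, also called BCAP, an adaptor through which the receptor engages PI3-kinase, fell to 30.3% of scramble per the authors' deposited table (log2 change −1.72, 95% interval −1.86 to −1.58, DESeq2 adjusted p = 1.03e-125). NCK2, an SH2 and SH3 adaptor, fell by 1.43 in log2 units as the authors' deposited table lists it. GAB2, a docking protein for SHP2 and PI3-kinase, and SH3BP2, an adaptor that binds SYK, rose by 0.62 and 1.045 in log2 units (values of the authors' deposited table). The heavy chain gene IGHM was not analysed here. With the minimum change 4 of these genes were higher, VAV1 and CRK besides GAB2 and SH3BP2, and 4 were lower, PAG1 and VAV2 besides PIK3AP1 and NCK2. Among all tested genes 35.8% were called with that change.

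The SRC-family kinase LYN, which phosphorylates CD79A and CD79B and also starts inhibitory signals, fell furthest among 9 tested kinase genes, to 28.1% of scramble by the authors' deposited table (log2 change −1.83, 95% interval −2.13 to −1.52, DESeq2 adjusted p = 6.89e-30). FYN of the same family also fell, by 0.23 in log2 units as the authors' deposited table lists it. None of the 9 rose by the authors' DESeq2 adjusted p, while 1 was higher at an unadjusted p under 0.05: CSK, which holds SRC-family kinases inactive, at 0.18 in log2 units by the authors' deposited table (adjusted p = 0.0665). The called share of the 9, 33.3%, stands beside 44.5% of all tested genes, and no test set the list against them. At an adjusted p under 0.1 the calls were 1 higher and 5 lower. Among all 12061 tested genes that threshold gave 2950 higher and 3149 lower. BLK, the B-lineage member of the family, did not pass per the authors' deposited table (log2 change −0.15, DESeq2 adjusted p = 0.297).

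Of 42 tested effector genes downstream of the receptor, 7 rose and 13 fell by the authors' deposited table, with a median log2 fold change of −0.17. The called share of these genes, 47.6%, is near the 44.5% of all tested genes and below the 58.8% of those with a mean of at least 1000. The small GTPase gene CDC42, the diacylglycerol-activated kinase gene PRKCB and the kinase gene AKT1 fell by 0.91, 0.67 and 0.53 in log2 units, by the authors' deposited table. AKT2, the paralogue of AKT1, had the opposite direction and rose by a log2 change of 0.52 as the authors' deposited table gives it (DESeq2 adjusted p = 1.1e-11). RASGRP2, an exchange factor for RAP GTPases, rose by 0.58 in log2 units as the authors' deposited table lists it.

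Among the 17 tested genes listed as inhibitory receptors, phosphatases and ligases, 5 rose and 3 fell by the authors' deposited table, with a median log2 fold change of 0.10. Whether each of them acts on this receptor in REH cells was not tested. The called share of this list, 47.1%, lies between 44.5% of all tested genes and 58.8% of those with a mean of at least 1000. The inhibitory receptor gene LILRB2 and PTPN22, a phosphatase that acts on SRC-family kinases, rose by 2.38 and 1.36 in log2 units (values of the authors' deposited table), at low means of 65.4 and 75.6 normalized counts. CD22, a sialic acid-binding inhibitory receptor, and PTPN11 and PTPN6, the phosphatases SHP2 and SHP1, fell by 0.29, 0.27 and 0.35 in log2 units, by the authors' deposited table. The other genes of the list that rose were SLA2, LAIR1 and DOK3, by log2 changes of 1.01, 0.31 and 0.23 as the authors' deposited table gives them. With the minimum change 3 were higher, LILRB2, PTPN22 and SLA2, and 1 lower, PTPN6.

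**Figure D5:**
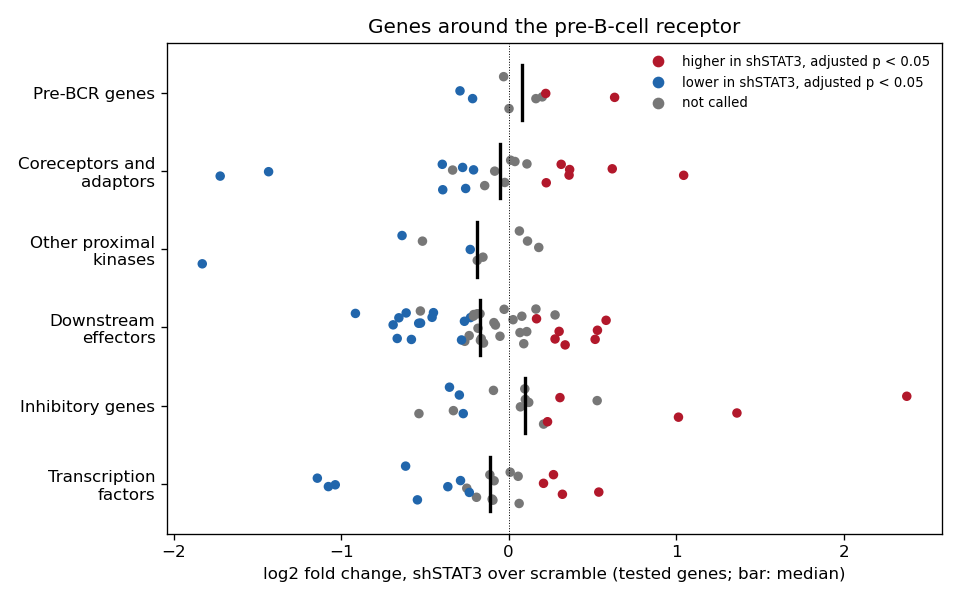
Values of the authors' deposited table: log2 fold change of shSTAT3 over scramble (horizontal axis) for the tested genes of the receptor and of 5 lists around it, with 1 point a gene and a black bar at each median. The receptor genes lie between −0.29 and 0.63, while the coreceptor and adaptor genes lie between −1.72 and 1.045.

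Transcription factors that are known to act on the receptor genes or the pre-B stage moved both ways. Of 21 tested, 4 rose and 8 fell per the authors' deposited table, with a median log2 fold change of −0.11. The called share of these factor genes, 57.1%, lies between 44.5% of all tested genes and 58.8% of those with a mean of at least 1000. EBF1, which activates CD79A, VPREB1 and IGLL1, did not pass by the authors' deposited table (log2 change −0.09, DESeq2 adjusted p = 0.413). PAX5, which in mouse activates CD79A together with EBF1, rose by 0.32 in log2 units as the authors' deposited table lists it (95% interval 0.20 to 0.44, DESeq2 adjusted p = 1.17e-06). IKZF1, which encodes Ikaros, a repressor of IGLL1 in mouse pre-B cells, fell by 0.54 in log2 units (values of the authors' deposited table). ETS1 fell by 1.14, MEF2C fell by 0.62 and LEF1 rose by 0.21 in log2 units, by the authors' deposited table. RUNX1 and POU2F2 also rose, by log2 changes of 0.27 and 0.54 as the authors' deposited table gives them. With the minimum change 1 factor gene, POU2F2, was higher and 6 were lower, against 1960 higher and 2362 lower among all 12061 tested genes.

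Marker genes of B-cell precursors were mostly present, with 1 exception, CD34. Of 16 B-cell precursor markers, 15 were tested, with RAG1 and DNTT, which act in V(D)J recombination, at means of 20516 and 16549 normalized counts per the authors' deposited table. CD34, a marker of early progenitors, had a mean of only 1.35 normalized counts by the authors' deposited table. In the authors' deposited table, 8 of the 15 tested precursor markers fell and 1, PAX5, rose (median log2 fold change −0.23). With the minimum change 3 fell, CD9, RAG2 and ERG, and 0 rose, against 2362 lower and 1960 higher among all 12061 tested genes. At an unadjusted p under 0.05 from the authors' DESeq2 test, 9 were lower and 3 were higher. That threshold gave 3143 lower and 2940 higher among all tested genes. The called share of these markers, 60%, is close to the 58.8% of tested genes with a mean of at least 1000, of which 28.4% were lower. Among all tested genes 44.5% were called, and 23.2% were lower. RAG2 fell by 0.52 on the log2 scale and RAG1 by 0.21 per the authors' deposited table, while CD79A rose. In bulk RNA, fewer cells of a type and less RNA per cell cannot be told apart. The defining T-cell genes CD3D and CD3G were listed at 0 and CD3E had a mean of 0.147 normalized counts by the authors' deposited table. LCK had the highest mean of the 16 T-cell and NK-cell markers, 202 normalized counts, and was not called per the authors' deposited table, while LAT, at a mean of 22.7, was the single riser of 4 tested. The called share of those 4 was 25%, against 44.5% of all tested genes. The summed mean of the T-cell and NK-cell list was 292 normalized counts, with 5 genes listed at 0, and that of the myeloid list 3628, both over all libraries of the authors' deposited table. Of 12 myeloid markers 5 were tested, and by the authors' deposited table ITGAM rose by 0.33 and CST3 and CSF1R fell by 0.75 and 0.81 on the log2 scale. The called share of those 5 was 60%, against 44.5% of all tested genes, and no test set the list against them. MPO, the myeloid marker with the highest mean, 2330 normalized counts, did not pass per the authors' deposited table (DESeq2 adjusted p = 0.33). CD14 had a mean of 6.66 and LYZ of 16 normalized counts by the authors' deposited table, and the part of such cells or transcripts in the change of LYN, which myeloid cells also express, was not tested.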

How the data were processed

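Total RNA of 6 REH cultures was made into TruSeq RNA v2 libraries, per the labels' protocols. DESeq2, featureCounts, Bowtie2, Picard, Trimmomatic, bcl2fastq 2.19 and the build hg38 are named, per the submitters' processing notes. Not given in the sources used here: their order and settings, the annotation, strand use and the formula.

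The deposited mean is a signal: DESeq2's baseMean, a depth-scaled count averaged by the authors across libraries, per the file headers. The deposited fold change is on the log2 scale, and p-values and adjusted p-values are the authors', per the file headers. Benjamini-Hochberg adjustment over the 12061 tested genes gave the deposited adjusted p within 2.87e-07. The lowest mean among tested genes is 10.01. Genes below that mean stayed untested, and so did some above it that have no p-value, such as LYZ at a mean of 16.

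Each standard error was taken from a fold change and its p under a normal (Wald) test, giving 95% intervals. Simulated data for this step took their p from the same formula, so they checked the arithmetic and not the intervals themselves. Genes with a mean under 1 had a median absolute log2 fold change of 0.0578, as fold changes shrunken toward 0 would have, and whether the deposited values are shrunken is not stated.

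The planned fit on values per library could not be made, so the authors' DESeq2 calls were used, as planned for that case. Members and gene lists were chosen with earlier results of these data known. Named are all members, STAT3, up to 4 called genes of smallest adjusted p per pathway list, up to 2 and the most abundant per marker list, and 8 genes fixed by name; EIF4A1, EIF3C, the relatives and neighbours of members, PLCG1, AKT2, CSK, BLK, VAV1, CRK, PAG1, VAV2, SLA2, LAIR1, DOK3, RUNX1, POU2F2, CD9, ERG, ITGAM, FCRL1, SDC1, MS4A1, CR2, JCHAIN, TNFRSF17, DNTT, CD34, CD3D, CD3G, CD3E, CD14 and LYZ were added after their values were seen. Some genes that this rule names are not reported here. Genes most like a member need values per library and were not sought. Positions and lengths came from GENCODE 29 on GRCh38, the longest transcript was an alternative length added after the data were seen, and 50-base stretches from its transcripts on both strands. Software: matplotlib 3.10.9, scipy 1.17.1, pandas 2.3.3, numpy 2.4.6, Python 3.11.15.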

Additional observations from a re-analysis of the deposited data

How the results depend on the processing

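Leaving out replicates could not be run, because the table has no value per library. No paired analysis was possible because the table gives 1 summary per gene, so the replicate numbers of the labels could not be used as a block. The alternatives were adjusted p thresholds of 0.01 and 0.1, no filter on low means, a mean of at least 50, a minimum change (at least 125% or at most 80% of scramble) and, added after the data were seen for the counts, fold changes less the median of all tested genes or of the tested genes in the same of 10 bins by mean. Of 56 member values under these alternatives 49 kept their direction and their side of the threshold. The threshold, filter and minimum-change settings leave the fold change as it is, so direction could turn only where a median was taken off. IGLL1 was not called at 0.01, BLNK was called at 0.1, and IGLL1, SYK and PLCG2 were not called at the minimum change. BTK, which was never called, turned to −0.00031 less the median of all tested genes and to −0.024 less that of its bin. The minimum change left 1 member, 8 coreceptor and adaptor genes, 4 inhibitory receptor, phosphatase and ligase genes, 7 transcription factor genes and 3 precursor markers called. At 0.1 the kinase list had 6 calls and at 0.01 the mature B-cell and plasma cell list had 2. Of all 12061 tested genes the minimum change left 4322 called, 0.1 gave 6099 and 0.01 gave 4107. At a mean of at least 50 the T-cell and NK-cell list had 0 calls by the authors' DESeq2 p-values, as LAT fell below that mean and LCK alone was tested, with 0 at an unadjusted p under 0.05. No bin by mean had a median further from 0 than 0.0544 on the log2 scale. For well expressed genes the median implied standard error was 0.083 on the log2 scale, which limits how small a change could be seen.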

Other observations

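Of 19 mature B-cell and plasma cell markers, 16 stand in the authors' deposited table and 8 were tested. MS4A1, which encodes CD20, had a mean of 0.516 normalized counts, and CR2, JCHAIN and TNFRSF17 were listed at 0 by the authors' deposited table. Of the 8 tested genes, 2 rose and 2 fell per the authors' deposited table. The called share of these markers, 50%, stands beside 44.5% of all tested genes. TNFRSF13C, which encodes the receptor for the B-cell survival factor BAFF, and FCRL1, an Fc receptor-like gene, rose by 0.90 and 0.89 in log2 units as the authors' deposited table lists it. FCRL1 had a low mean of 26.1 normalized counts. XBP1, needed for antibody secretion, and SDC1, which encodes the plasma cell antigen CD138, fell by 0.84 and 0.56 in log2 units (values of the authors' deposited table).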
